A study of Mus musculus with 18 samples.

Results

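The genes described here are 10 that mark or serve regulatory T cells: Foxp3, Il2ra, Ikzf2, Tnfrsf9, Tnfrsf18, Tnfrsf4, Gpr83, Entpd1, Nrp1 and Cd83. They were chosen by symbol, and a probe belonged to a gene where the RefSeq accession in the scanner files matched that symbol, which gave 17 probes of the 41174 on the array. Il2ra, Tnfrsf9, Entpd1 and Nrp1 had more than 1 probe each and Ikzf2 had 4; the probe with the highest mean is called probe 1. All 17 were well above background on all 18 arrays, and none was saturated.

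RNA of naive CD4+ T cells sorted as CD44low from mouse spleen was measured on 18 Agilent 4x44k arrays, 1 mouse an array, in 6 groups of 3. The mice were C57BL/6 and received tamoxifen for 1 or 4 weeks, which activates a Cre recombinase fused to an oestrogen receptor (ERCre). By the sample titles the controls (WT) were ERCre- LAT f/-, the knockouts (KO) ERCre+ LAT f/- and the point mutants (Y136F) ERCre+ LAT f/m; the series text instead gives Cre to all 3 genotypes and names the mutant Y136F/-. By the titles, then, WT differed from both mutants in Cre as well as in LAT, and all groups received tamoxifen and, where the titles hold, carried 1 floxed allele. The labels name neither the age of the mice nor the cells in which the Cre was active.

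LAT is the membrane adaptor that carries signals from the T cell receptor to phospholipase C, calcium and Ras, and the tyrosine changed in Y136F is the one that binds phospholipase C gamma 1. Regulatory T cells restrain other lymphocytes: Foxp3 is their defining transcription factor, and many of the surface molecules on them are also induced on conventional T cells when the T cell receptor is engaged. In RNA of a whole sorted population, fewer regulatory T cells and less RNA of a gene per cell cannot be told apart.

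Promoters are shown for 3 of the genes whose level differed between genotypes below, because the search for binding motifs was made in them. RefSeq's table (build GRCm38.p6) held 11 promoters for 8 of the 10 genes, each of 300 bases, 250 before the start and 50 from it on, all on the plus strand; Ikzf2 and Cd83 were not among them. Capitals mark any match, on either strand, to 6 motifs: AP-1 (TGANTCA), NF-kB (GGG, any 2 bases, TTTCC), EGR (GCGNGGGCG), NR4A (AAAGGTCA), the NFAT core (GGAAA) and IRF (GAAA, any 2 bases, GAAA).
Tnfrsf9, upstream start, chr4:150919905-150920204: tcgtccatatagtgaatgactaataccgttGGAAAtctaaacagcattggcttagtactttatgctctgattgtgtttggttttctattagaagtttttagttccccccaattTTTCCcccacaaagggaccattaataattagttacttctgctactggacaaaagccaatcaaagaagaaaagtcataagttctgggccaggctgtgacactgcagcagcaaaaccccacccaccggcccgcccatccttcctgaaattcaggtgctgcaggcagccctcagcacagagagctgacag
Tnfrsf9, downstream start, chr4:150927749-150928048: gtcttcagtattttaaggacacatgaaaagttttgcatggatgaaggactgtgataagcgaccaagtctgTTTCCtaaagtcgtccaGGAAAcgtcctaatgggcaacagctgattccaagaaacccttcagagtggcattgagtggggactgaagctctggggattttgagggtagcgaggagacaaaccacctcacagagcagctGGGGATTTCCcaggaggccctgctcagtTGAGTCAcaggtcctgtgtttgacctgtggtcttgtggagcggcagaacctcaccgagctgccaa
Gpr83, chr9:14859960-14860259: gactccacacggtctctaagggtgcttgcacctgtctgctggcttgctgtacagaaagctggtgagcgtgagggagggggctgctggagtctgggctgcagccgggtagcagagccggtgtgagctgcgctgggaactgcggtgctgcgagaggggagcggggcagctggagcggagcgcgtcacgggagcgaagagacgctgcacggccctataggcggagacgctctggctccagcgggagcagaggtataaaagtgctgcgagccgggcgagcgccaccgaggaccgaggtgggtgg
Entpd1, upstream start, chr19:40612116-40612415: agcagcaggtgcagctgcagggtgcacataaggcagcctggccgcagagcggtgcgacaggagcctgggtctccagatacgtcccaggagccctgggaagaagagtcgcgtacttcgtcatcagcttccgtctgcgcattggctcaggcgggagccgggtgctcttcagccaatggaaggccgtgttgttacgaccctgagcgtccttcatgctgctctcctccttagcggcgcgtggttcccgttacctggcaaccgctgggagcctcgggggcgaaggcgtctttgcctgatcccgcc
Entpd1, downstream start, chr19:40659520-40659819: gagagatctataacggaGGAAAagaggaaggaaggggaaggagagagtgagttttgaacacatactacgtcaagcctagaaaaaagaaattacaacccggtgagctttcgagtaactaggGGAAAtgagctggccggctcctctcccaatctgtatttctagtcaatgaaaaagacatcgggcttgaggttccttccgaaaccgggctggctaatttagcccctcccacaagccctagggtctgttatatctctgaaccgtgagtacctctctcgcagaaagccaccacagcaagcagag

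The downstream Tnfrsf9 promoter was the only one of the 11 with a match to AP-1 or NF-kB. Its TGAGTCA began at position -15 from the start (0 being the first transcribed base) and its GGGGATTTCC at position -43. The NFAT core on the other strand at position -38 lies within the latter, as it does by definition in any match to that NF-kB pattern. Among 32851 mouse promoters of the same length, 7.81% held the AP-1 motif, 1.63% the NF-kB motif, 5.55% the EGR motif, 1.51% the NR4A motif, 3.44% the IRF motif and 61.3% the NFAT core. No EGR, NR4A or IRF match lay in the 11 windows, and the Gpr83 window and the upstream Entpd1 window held no match to any of the 6. These matches are letters in a window, not measured sites.

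Signal is given as log2 intensity minus the 75th percentile of the same array, so that 0 is the level of a probe at that percentile; levels of different probes are not comparable. Array percentiles lay between 1124 and 1896 intensity units, and 84.2% to 97.9% of spots were well above background. Spots marked as outliers numbered 187 to 952 on 17 arrays and 7888 on KO replicate 3 at 1 week; they were left out, which took 4 Tnfrsf18 values and 1 value each of Tnfrsf9, Entpd1 and Nrp1 (probe 2 of each). All 8 CD4 T cell markers were well above background on every array. Lat, the targeted gene, read 2.75, 3.47 and 3.37 in WT, 2.32 and 2.73 in KO (replicate 2 left out as an outlier) and 4.26, 4.17 and 4.32 in Y136F at 1 week. At 4 weeks it read 3.29, 3.62 and 3.85, 3.16, 2.62 and 2.34, and 4.43, 3.86 and 3.93. KO lay wholly below WT at both times without passing the threshold of an adjusted p under 0.05 (-0.67 ± 0.26 and -0.88 ± 0.23, adjusted p = 1 and 0.203), and Y136F lay above WT over both times by 0.77 ± 0.16 (adjusted p = 0.0243). The files do not say whether its probe lies in the deleted part.

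The labels give female for all Y136F mice, male for all WT and KO mice at 4 weeks, and female for replicates 1 and 2 and male for replicate 3 of WT and KO at 1 week. On 2 arrays sex-linked RNA went against the label. The library labelled KO replicate 1 at 1 week, given as female, read -9.3 for Xist and -0.23 for Ddx3y, and the library labelled KO replicate 2 at 4 weeks, given as male, read 0.21 and -8.92. Each result is therefore also given without these libraries where that changed it. Summed over 15 B cell markers, the 1-week library read 41, beside 12 and 11.1 in the other KO libraries at 1 week. The 4-week library read 11.6, beside 29.8 and 26.6 in the other KO libraries at 4 weeks. The summed CD8 T and NK cell markers differed likewise, and the summed myeloid markers did not. Whether the 2 libraries were exchanged between the times was not tested. KO results at a single time, and the change of the KO effect, rest on the labels as given. At 4 weeks, Y136F and sex cannot be told apart within the groups compared, and a sex term rests on the 1-week WT and KO arrays.

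Foxp3, the lineage factor on chromosome X, did not pass the threshold in any comparison. WT read 0.40, -0.05 and 0.06 at 1 week and 0.23, -0.11 and -0.16 at 4 weeks. KO read 0.65, -0.18 and -0.96 at 1 week and 0.26, -0.16 and 0.26 at 4 weeks, and Y136F read -0.04, -0.04 and 0.00 and then -0.50, 0.01 and 0.03. The 3 KO arrays at 1 week lay apart from each other, 1 above and 2 below all WT arrays, and the groups overlapped in every comparison. Differences from WT were -0.30 ± 0.28 (SE) for KO and -0.16 ± 0.28 for Y136F at 1 week, and 0.13 ± 0.28 and -0.14 ± 0.28 at 4 weeks. At 1 week the 95% intervals ran from -0.89 to 0.29 for KO and from -0.75 to 0.43 for Y136F, and at 4 weeks from -0.46 to 0.72 and from -0.73 to 0.45. Without the 2 libraries against their label, KO at 1 week read -0.71 ± 0.22 against WT (limma, adjusted p = 0.553), and with labelled sex as a term Y136F at 4 weeks read -0.80 ± 0.36 (adjusted p = 0.501).

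Ikzf2, which encodes the Foxp3-associated factor Helios, did not pass in any comparison with WT either. Its probe 1 read 1.79, 1.67 and 1.43 in WT, 2.63, 1.12 and 0.51 in KO and 1.26, 1.59 and 1.33 in Y136F at 1 week. At 4 weeks it read 2.48, 1.84 and 1.71, 2.33, 1.23 and 2.10, and 2.09, 1.97 and 2.37. Again KO replicate 1 at 1 week was the highest and replicate 3 the lowest of all 18 arrays. Over the 4 probes, differences from WT ran from -0.25 to 0.49, and none passed the threshold.

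Il2ra encodes the alpha chain of the receptor for interleukin 2, on which regulatory T cells depend. Probe 1 read 2.63, 2.37 and 2.16 in WT, 2.61, 1.72 and 1.32 in KO and 1.62, 1.81 and 2.34 in Y136F at 1 week, and all 9 values at 4 weeks lay between 1.85 and 2.55. On this probe the groups overlapped at both times. The largest difference of probe 1 from WT was -0.50 ± 0.26, in KO at 1 week. On probe 2 Y136F lay wholly below WT at 1 week, at -4.09 to -3.75 beside -3.42 to -3.12. That difference was -0.67 ± 0.29 (limma, adjusted p = 0.742), and -0.70 to -0.63 within the 3 slides that held both. Of 12 genes of interleukin 2 signalling, 0 passed in KO at either time or in Y136F at 1 week. In Y136F at 4 weeks Jak3, the kinase on the shared receptor chain, rose by 0.71 ± 0.15 and Cish, a STAT5 target, by 1.09 ± 0.24 (adjusted p = 0.0116 and 0.0151). There 2.57% of all probes passed as higher. Jak3 passed on its brightest probe alone, the other 2 reading 0.69 ± 0.20 and 0.59 ± 0.25 (adjusted p = 0.0737 and 0.248).

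**Figure D1:**
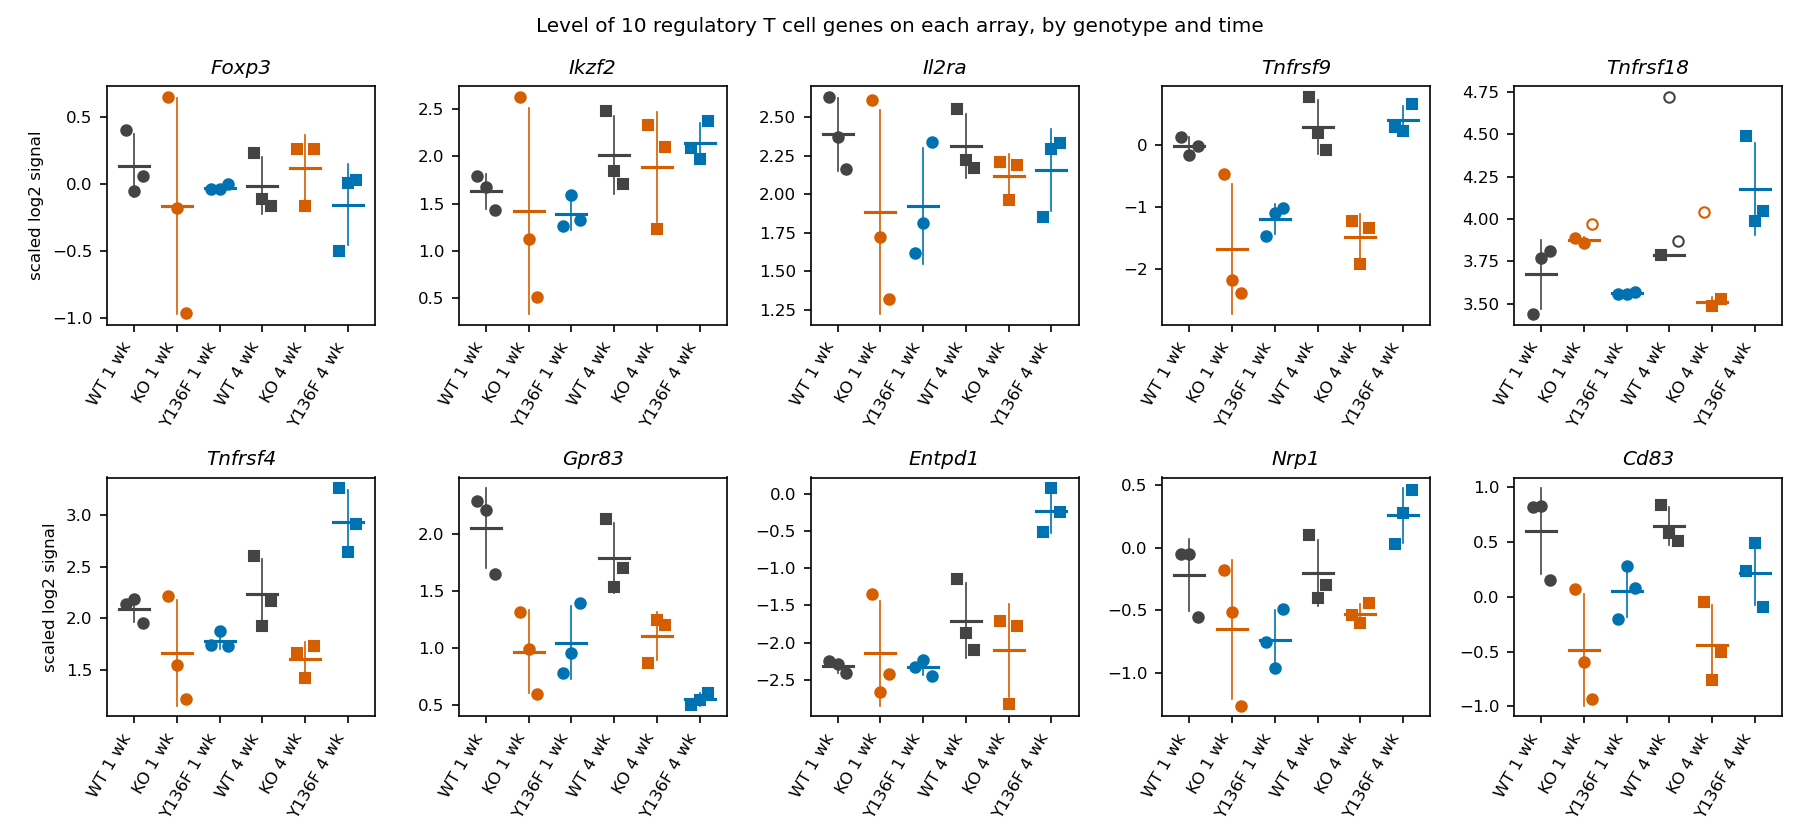
Scaled log2 signal (y) of probe 1 of each of the 10 genes on every array, by genotype and weeks of tamoxifen (x). Points are arrays, open circles are spots left out as outliers, horizontal bars are group means and vertical bars ± 1 SD. Foxp3, Ikzf2 and Il2ra overlap between groups, and Tnfrsf9 and Cd83 are low in KO. In Y136F Tnfrsf9 also lies below WT at 1 week and Cd83 at 4 weeks. Gpr83 is low in both mutants, and Entpd1 is high only on the 3 Y136F arrays at 4 weeks.

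Tnfrsf9 encodes 4-1BB (CD137), a costimulatory receptor of the tumour necrosis factor (TNF) receptor family. In KO it was low at both times. Probe 1 read 0.14, -0.16 and -0.01 in WT and -0.47, -2.19 and -2.39 in KO at 1 week, and 0.79, 0.20 and -0.07 in WT and -1.22, -1.92 and -1.34 in KO at 4 weeks. Every KO array lay below every WT array of its time. Over both times the difference was -1.74 ± 0.26 on probe 1 (3.33-fold, limma, adjusted p = 0.00458) and -1.56 ± 0.25 on probe 2 (adjusted p = 0.011). Of all probes, 0.324% passed in this comparison, 0.118% as lower.

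At single times fewer values passed. At 4 weeks the difference was -1.80 ± 0.36 on probe 1 and -1.91 ± 0.34 on probe 2, with adjusted p = 0.0707 and 0.0466 by limma; 0.0977% of all probes passed, 0.0351% as lower. At 1 week it was -1.67 ± 0.36 and -1.2 ± 0.38 (adjusted p = 0.412 and 1), where 0.015% passed. Without the 2 libraries against their label, probe 1 passed at both times, at -2.28 ± 0.22 (adjusted p = 0.000229) and -1.59 ± 0.22 (adjusted p = 0.0107), while probe 2 passed at neither (0.189 and 0.0673). KO replicate 1 at 1 week, 1 of these 2, was the highest KO array for Tnfrsf9. On the 2 slides that held KO and WT of 4 weeks, probe 1 differed by -2.01 and -1.27.

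In Y136F, Tnfrsf9 was below WT at 1 week and overlapped it at 4 weeks. Probe 1 read -1.47, -1.09 and -1.01 at 1 week, below all WT arrays, and 0.30, 0.24 and 0.68 at 4 weeks. The differences from WT were -1.18 ± 0.36 (adjusted p = 0.408; 0.0125% of all probes passed) and 0.10 ± 0.36 (adjusted p = 0.897; 3.49% passed). The change between the times was 1.28 ± 0.51 on probe 1 and 1.54 ± 0.48 on probe 2, short of the threshold (adjusted p = 0.388 and 0.202; 0.599% passed). Without the 2 libraries against their label, probe 1 passed in the change (adjusted p = 0.0263) and at 1 week (adjusted p = 0.0449). At 4 weeks KO lay below Y136F by -1.90 ± 0.36 and -2.30 ± 0.34 (adjusted p = 0.00488 and 0.000819; 3.53% of all probes passed, 2.38% as lower), with no overlap on either probe.

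Tnfrsf9 was also compared with Foxp3 array by array. The log2 ratio of Tnfrsf9 to Foxp3, whose zero has no meaning but whose differences between arrays do, lay between -0.26 and -0.07 in WT and between -2.01 and -1.13 in KO at 1 week. At 4 weeks it lay between 0.08 and 0.56 in WT and between -1.76 and -1.47 in KO, and in Y136F it went from between -1.43 and -1.01 to between 0.24 and 0.79. The KO arrays with the most and the least Foxp3 were both below WT in this ratio. The ratios of Gpr83 and Cd83 to Foxp3 also lay wholly below WT in KO at both times. At 1 week these were 0.66 to 1.56 beside 1.6 to 2.25 for Gpr83, and -0.58 to 0.03 beside 0.09 to 0.87 for Cd83. Those of Il2ra, Ikzf2, Tnfrsf18, Tnfrsf4, Entpd1 and Nrp1 overlapped between KO and WT at 1 week. At 4 weeks the ratios of Il2ra, Tnfrsf4, Entpd1 and Nrp1 also lay wholly below WT in KO. They were 1.93 to 2.13 beside 2.32 to 2.34 for Il2ra, and 1.41 to 1.58 beside 2.04 to 2.37 for Tnfrsf4. For Entpd1 they were -2.66 to -1.96 beside -1.94 to -1.37, and for Nrp1 -0.79 to -0.44 beside -0.28 to -0.13. Only those of Ikzf2 and Tnfrsf18 overlapped at both times. The ratios were formed after the values had been seen and are given with no test. Whether they reflect RNA per cell or the share of regulatory T cells was not tested.

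**Figure D2:**
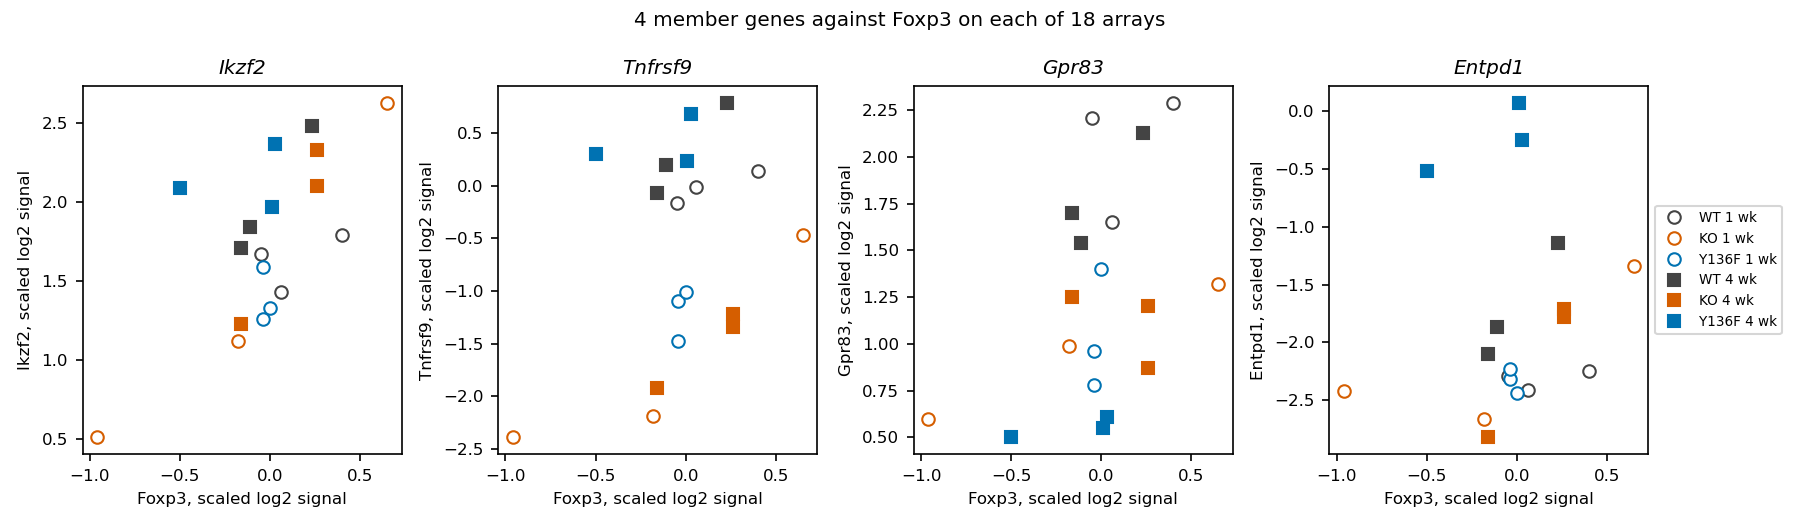
Scaled log2 signal of Ikzf2, Tnfrsf9, Gpr83 and Entpd1 (y) against that of Foxp3 (x) on each of the 18 arrays, open circles for 1 week and filled squares for 4 weeks. Ikzf2 follows Foxp3 in KO and in WT at 4 weeks, and less clearly in the other groups. Tnfrsf9 of KO lies below WT at like Foxp3, Gpr83 of both mutants lies below WT, and Entpd1 of Y136F at 4 weeks stands above all other arrays.

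Tnfrsf4 encodes OX40, another costimulatory receptor of the family. WT read 2.14, 2.19 and 1.95 at 1 week and 2.60, 1.93 and 2.17 at 4 weeks. KO read 2.22, 1.55 and 1.22 and then 1.66, 1.42 and 1.73, and Y136F 1.74, 1.88 and 1.73 and then 3.26, 2.64 and 2.91. At 1 week Y136F lay wholly below WT without passing, by -0.41 to -0.21 within the 3 slides that held both, and KO overlapped both. At 4 weeks the 3 genotypes did not overlap, with KO lowest and Y136F highest. KO lay below Y136F by -1.33 ± 0.22 (2.52-fold, limma, adjusted p = 0.00168). Against WT neither mutant passed at 4 weeks: KO read -0.63 ± 0.22 (adjusted p = 0.329) and Y136F 0.70 ± 0.22 (adjusted p = 0.1), the latter with adjusted p = 0.0285 without the 2 libraries against their label.

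Tnfrsf18, which encodes GITR, a receptor of the same family that is high on regulatory T cells, had values on 14 arrays. They ran from 3.44 to 4.49, and only 1 WT array was left at 4 weeks, at 3.79. No difference passed; the largest was KO against Y136F at 4 weeks, -0.67 ± 0.18 (adjusted p = 0.0582), or -0.49 ± 0.22 with the outlier spots kept (adjusted p = 0.353). With them kept, WT at 4 weeks read 3.79, 4.72 and 3.87.

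Of 23 measured ligands, adaptors and NF-kB factors that work with these receptors, 0 passed in KO at either time or in Y136F at 1 week. In Y136F at 4 weeks Nfkbia, the NF-kB inhibitor, fell (-0.56 ± 0.14), and Malt1, a protease upstream of NF-kB, lay lower in KO than in Y136F by -0.61 ± 0.16 (limma, adjusted p = 0.0298 and 0.0367).

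Gpr83, a G protein-coupled receptor found on regulatory T cells, was low in both mutants at both times. WT read 2.29, 2.21 and 1.65 at 1 week and 2.13, 1.54 and 1.70 at 4 weeks. KO read 1.32, 0.99 and 0.60 and then 0.87, 1.25 and 1.20, and Y136F read 0.78, 0.96 and 1.40 and then 0.50, 0.55 and 0.61. In each of the 4 comparisons every mutant array lay below every WT array of its time.

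Over both times Gpr83 fell in Y136F, with a difference of -1.12 ± 0.15 (2.18-fold, limma, adjusted p = 0.00103; 1.9% of all probes passed, 0.594% as lower), and in KO, with -0.89 ± 0.15 (1.85-fold, adjusted p = 0.0124). By time, it passed only in Y136F at 4 weeks, at -1.24 ± 0.21 (2.36-fold, adjusted p = 0.00257), where 0.925% of all probes passed as lower. The remaining 3 read -1.08 ± 0.21, -0.69 ± 0.21 and -1.0 ± 0.21, for KO at 1 and 4 weeks and Y136F at 1 week (adjusted p = 0.281, 0.284 and 0.147). These comparisons share their WT arrays. On all 3 slides that held both, Y136F was below WT at 4 weeks, by -1.64 to -0.99.

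Cd83, an activation-induced membrane protein that stabilises MHC class II on dendritic and B cells and is also found on activated regulatory T cells, was low in KO. WT read 0.82, 0.83 and 0.15 at 1 week and 0.84, 0.58 and 0.51 at 4 weeks, and KO 0.07, -0.59 and -0.93 and then -0.05, -0.76 and -0.50. KO and WT did not overlap at either time. Cd83 fell in KO over both times, with a difference of -1.08 ± 0.18 (2.11-fold, adjusted p = 0.0103), and read -1.08 ± 0.25 at each time (adjusted p = 0.509 and 0.136). Y136F read -0.20, 0.28 and 0.08 and then 0.24, 0.49 and -0.09, and did not pass at either time (-0.54 ± 0.25 and -0.43 ± 0.25). It overlapped WT at 1 week but also lay wholly below it at 4 weeks, by -0.60 to -0.09 within the 3 slides that held both. With labelled sex as a term, Y136F at 4 weeks read -1.10 ± 0.30 against WT (limma, adjusted p = 0.164). Of 16 partner genes of CD83, CD39 and neuropilin 1, Cd86, a costimulatory ligand that CD83 keeps on the surface of antigen-presenting cells, fell in Y136F at 4 weeks (-0.95 ± 0.22, adjusted p = 0.0191), and no other passed against WT. The second Cd86 probe did not pass (-0.83 ± 0.24, adjusted p = 0.0652).

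Entpd1 encodes CD39, the surface enzyme that breaks down extracellular ATP and with CD73 yields adenosine. Probe 1 read -2.25, -2.29 and -2.41 in WT, -1.34, -2.66 and -2.42 in KO and -2.32, -2.23 and -2.44 in Y136F at 1 week. At 4 weeks it read -1.14, -1.87 and -2.10 in WT, -1.71, -2.82 and -1.78 in KO and -0.52, 0.07 and -0.25 in Y136F. The 3 Y136F arrays of 4 weeks stood above all other 15. The rise over WT was 1.47 ± 0.33 on probe 1 (2.77-fold, adjusted p = 0.016) and 1.53 ± 0.24 on probe 2 (2.88-fold, adjusted p = 0.00167), where 2.57% of all probes passed as higher. KO at 4 weeks lay below Y136F by -1.87 ± 0.33 and -1.76 ± 0.24 (adjusted p = 0.00278 and 0.000475), and KO and WT did not differ past the threshold at either time.

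The Y136F effect on Entpd1 was greater at 4 weeks than at 1 week on probe 2, by 1.68 ± 0.34 (limma, adjusted p = 0.0337), and by 1.48 ± 0.47 on probe 1 (adjusted p = 0.202). Nt5e, which encodes CD73, did not pass in any comparison with WT. With labelled sex as a term, neither Entpd1 probe passed in Y136F at 4 weeks; with the sex term and without the 2 libraries against their label, probe 1 did (1.49 ± 0.33, adjusted p = 0.0351).

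Nrp1 encodes neuropilin 1, a semaphorin receptor that marks thymus-derived regulatory T cells in mice. Probe 2 read -1.36, -1.41 and -1.54 in WT and -2.35, -2.02 and -1.98 in Y136F at 1 week, and -0.94, -0.96 and -1.02 in WT and -0.28, -0.69 and -0.43 in Y136F at 4 weeks. On this probe Y136F lay wholly below WT at 1 week and wholly above it at 4 weeks, while on probe 1 the groups overlapped at both times. The change on probe 2 was 1.19 ± 0.25 (adjusted p = 0.0418; 0.98 ± 0.33 on probe 1, adjusted p = 0.249). Neither time passed alone (-0.68 ± 0.18 and 0.51 ± 0.18, adjusted p = 0.26 and 0.155). KO read -1.61, -1.98 and -1.61 at 4 weeks, below every WT and Y136F array; it lay below Y136F by -1.27 ± 0.18 (adjusted p = 0.000565), and by -0.79 ± 0.23 on probe 1 (adjusted p = 0.0759).

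The arrays lay on 5 slides, each of which held several groups. Within the 2 or 3 slides that held both groups at 4 weeks, KO differed from WT by -1.01 and -0.89 in Cd83, Y136F from WT by 0.62 to 1.93 in Entpd1 probe 1 and 1.14 to 1.86 in probe 2, and KO from Y136F by -1.6 and -1.18 in Tnfrsf4 and by -1.34 and -1.18 in Nrp1 probe 2. With slide as a block, Tnfrsf9 probe 1 and Cd83 still passed in KO over both times (-1.79 ± 0.27 and -0.96 ± 0.16, adjusted p = 0.0233 and 0.034), as did Gpr83 and Entpd1 in Y136F at 4 weeks. Tnfrsf9 probe 2 and Gpr83 no longer passed in KO over both times (adjusted p = 0.0685 and 0.0722), nor did the changes of the Y136F effect on Entpd1 and Nrp1 (0.0789 and 0.0679). With labelled sex as a term, none of Tnfrsf9, Tnfrsf4, Entpd1 and Nrp1 passed between KO and Y136F at 4 weeks, where probe 1 of Tnfrsf9 read -1.37 ± 0.52 (adjusted p = 0.233). Without the 2 libraries against their label, the Y136F effect on Tnfrsf4 and on Entpd1 probe 1 also changed between the times (1.01 ± 0.25 and 1.48 ± 0.30, adjusted p = 0.0481 and 0.0154).

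**Figure D3:**
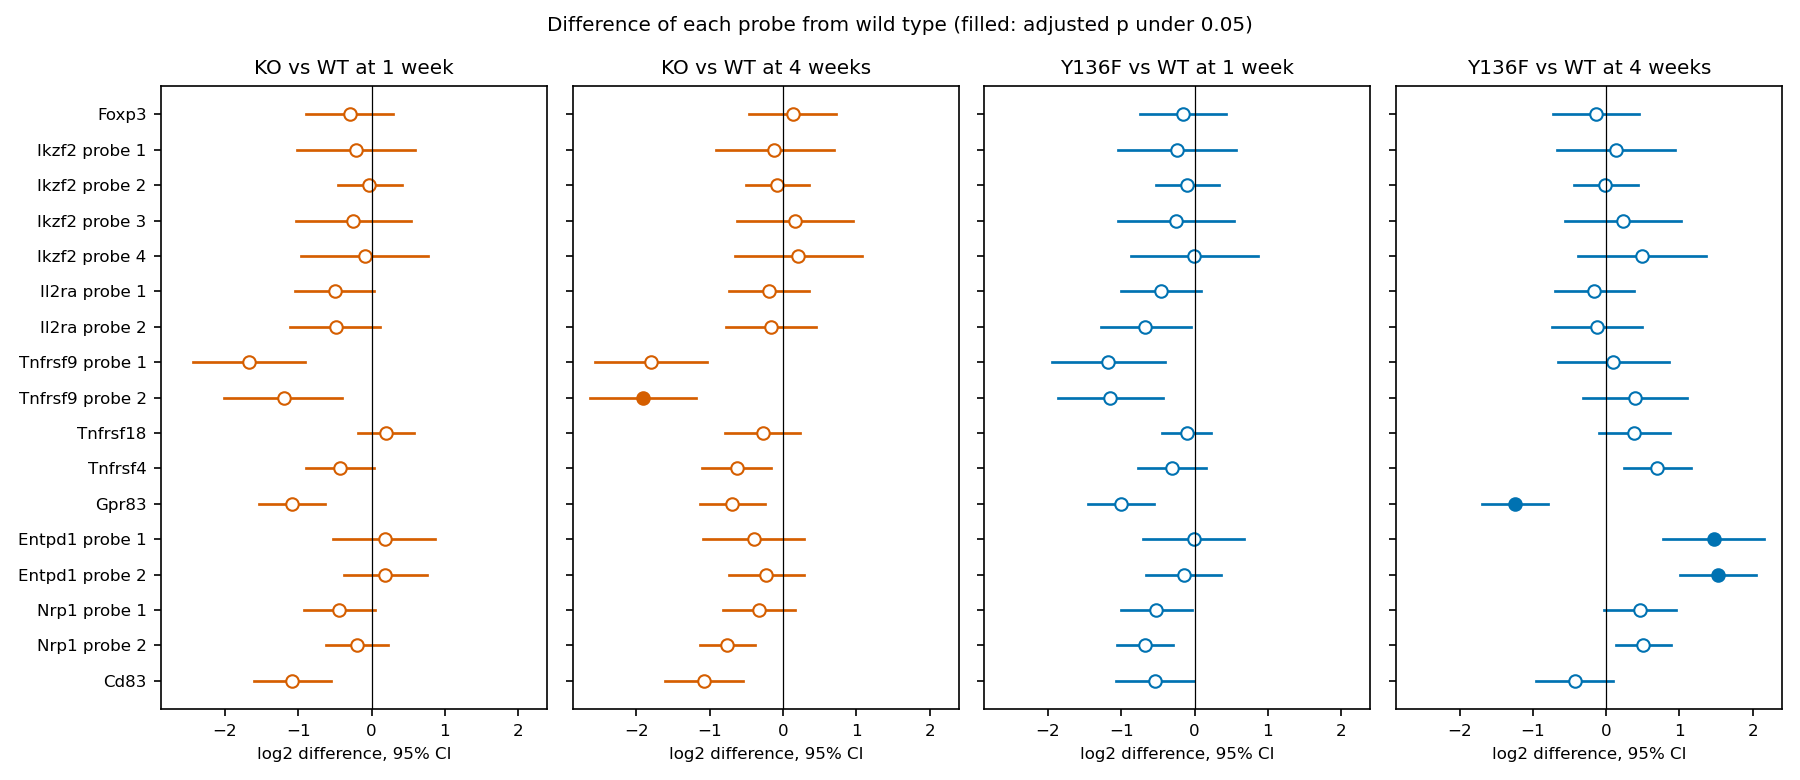
Log2 difference from WT (x) of each of the 17 probes (y) in KO and Y136F at 1 and 4 weeks, with 95% confidence intervals from limma; filled points have an adjusted p under 0.05. Filled are Tnfrsf9 probe 2 in KO at 4 weeks, and Gpr83 and both Entpd1 probes in Y136F at 4 weeks.

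Counted by probe 1, 0 of the 10 genes passed in KO or Y136F at 1 week or in KO at 4 weeks (0.015%, 0.0125% and 0.0977% of all probes). In Y136F at 4 weeks 1 rose and 1 fell (2.57% and 0.925% of all probes). At an unadjusted p under 0.05 the counts were 3 (2.9% of all probes), 4 (6.46%) and 4 (11.3%) for KO and Y136F at 1 week and KO at 4 weeks. In KO at 1 week 3 genes lay wholly below and 1 wholly above WT, against 3.77% and 1.25% of all probes. Wholly below WT were also 3 genes in Y136F at 1 week, against 6.41%, and 6 in KO at 4 weeks, against 13.8%. Among these 6 was Tnfrsf18, which rests on 1 WT array at 4 weeks and overlapped with the outlier spots kept. In Y136F at 4 weeks 2 lay wholly below and 3 wholly above, against 16.6% and 9.95%; Tnfrsf18 was among the 3 on the same WT array, and overlapped with the spots kept. The median difference of the 10 genes and of all probes was -0.43 and -0.04 in KO at 1 week, -0.36 and -0.14 in KO at 4 weeks, -0.39 and -0.11 in Y136F at 1 week, and 0.12 and -0.16 in Y136F at 4 weeks. KO against Y136F at 4 weeks had 3 genes lower past the threshold (2.38% of all probes), 5 wholly below (10.1%) and 1 wholly above (13.1%). Tnfrsf18, among the 5, overlapped with the spots kept. The median was -0.66 beside 0.03. By limma, 0 members and 0% of all probes passed in KO against Y136F at 1 week, in WT between the times and in the change of the KO effect; at an unadjusted p under 0.05 these were 1 member (6.03% of all probes), 0 (19.1%) and 0 (5.28%). By probe 1, 0 members passed in the change of the Y136F effect (0.599% of all probes), and 4 had an unadjusted p under 0.05 (9.22%).

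The order of group means differed between genes. Y136F at 4 weeks was the highest group for Ikzf2, Tnfrsf9, Tnfrsf18, Tnfrsf4, Entpd1 and Nrp1 and the lowest for Gpr83. The means of Foxp3 spanned 0.30 and those of Il2ra 0.50, while those of Entpd1 spanned 2.10 and those of Tnfrsf9 2.09. Each neighbouring pair of groups overlapped for Foxp3 and Il2ra. The same held for Ikzf2, Cd83 and Nrp1, whose means spanned 0.74, 1.12 and 0.99.

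Of the other regulatory T cell genes, 25 of 28 listed were measured. In KO at either time and in Y136F at 1 week 0 passed against WT; over both times in KO, Cd200, a ligand that restrains myeloid cells, fell (-1.12 ± 0.21, adjusted p = 0.0184), as did the second probe of Plagl1, a zinc finger factor (-0.78 ± 0.14, adjusted p = 0.015), though not its brightest. In Y136F at 4 weeks 4 rose, where 2.57% of all probes did: Penk, the proenkephalin gene, by 2.10 ± 0.56, Il1rl1, the interleukin 33 receptor, by 1.74 ± 0.46, Ebi3, a subunit of interleukin 35, by 1.45 ± 0.26, and Prdm1, the factor Blimp-1, by 1.2 ± 0.25 (limma, adjusted p = 0.0474, 0.0485, 0.0032 and 0.01). Ctla4, the inhibitory receptor, moved the other way and fell over both times in Y136F (-0.73 ± 0.17, adjusted p = 0.0369), as did a dimmer probe of Ikzf4, which encodes Eos (-0.48 ± 0.12, adjusted p = 0.0435), while Ebi3 also rose over both times. The second Penk probe also passed (1.73 ± 0.42, adjusted p = 0.0283). Il1rl1 had 2 further probes, of which 1 passed in Y136F at 4 weeks (2.07 ± 0.47) and 1 did not (1.54 ± 0.62, adjusted p = 0.216). KO lay below Y136F at 4 weeks in 9 of the 25, where 2.38% of all probes did, among them Lag3, an inhibitory receptor, by -2.31 ± 0.45, and Icos, a costimulatory receptor, by -1.02 ± 0.21 (adjusted p = 0.00594 and 0.01). The list's median was -0.48 in KO and 0.36 in Y136F at 4 weeks, beside -0.14 and -0.16 for all probes.

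**Figure D4:**
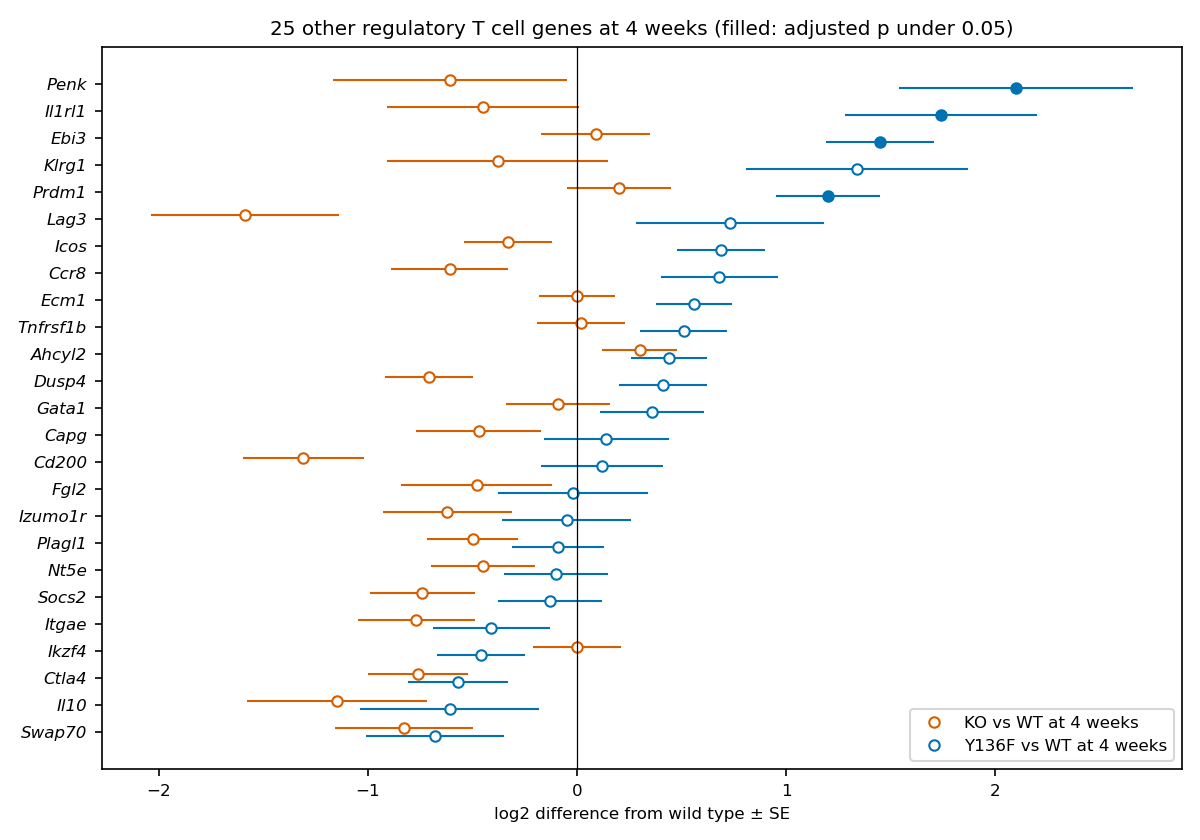
Log2 difference from WT at 4 weeks (x, ± SE) of 25 further regulatory T cell genes (y) in KO and in Y136F, ordered by the Y136F difference; filled points have an adjusted p under 0.05. Filled are Penk, Il1rl1, Ebi3 and Prdm1 in Y136F, and no gene in KO.

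Among 20 measured regulators and partners of Foxp3, only Nr4a1, an orphan nuclear receptor that reports T cell receptor signals and induces Foxp3 in the thymus, passed in KO at single times. It fell, with differences of -2.02 ± 0.15 at 1 week and -1.70 ± 0.15 at 4 weeks (adjusted p = 5.78e-06 and 8.82e-05), and in Y136F at 1 week by -1.60 ± 0.15 (adjusted p = 0.000217). At 4 weeks in Y136F, Gata3 rose by 1.59 ± 0.19 and Nfatc1 by 0.89 ± 0.19 on its brightest probe, while the second Nfatc1 probe did not pass (0.37 ± 0.17, adjusted p = 0.28). Of 26 genes induced early by the T cell receptor, 5 fell in KO at each time, namely Nr4a1, Egr1, Egr2, Egr3 and Irf4, and 3 in Y136F at 1 week, namely Nr4a1, Egr3 and Irf4. Of all probes, 0.015% and 0.0977% passed in KO at 1 and 4 weeks and 0.0125% in Y136F at 1 week, in either direction. Irf4 also fell in Y136F at 4 weeks (-1.05 ± 0.23, adjusted p = 0.0145), where Cd5, Bhlhe40, Jun and Jund rose. There 0.925% of all probes passed as lower and 2.57% as higher. In the KO array with the highest Tnfrsf9, replicate 1 at 1 week, Nr4a1 read -2.27, beside -2.15 and -1.97 on the others and -0.20 to -0.03 in WT.

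Within groups most members other than Tnfrsf18 correlated positively. Each array's deviation from its group mean was compared over the 18 arrays, which share arrays, slides and scaling: of 45 pairs of genes 37 correlated positively, with a median Pearson r of 0.66, and the other 8 all included Tnfrsf18, which was negative with every member but Tnfrsf4 (-0.46 with Foxp3 to -0.05 with Ikzf2, and 0.38 with Tnfrsf4, over 14 arrays). Many genes outside the members correlated as well: by likeness to Foxp3 among 12543 genes, Ikzf2 ranked 57, Tnfrsf4 2122 and Gpr83 2760. Foxp3 correlated with Il2ra and Ikzf2 at 0.88 each and with Tnfrsf9 at 0.86 (Spearman 0.83, 0.73 and 0.76). Without the 2 arrays farthest in Foxp3, KO replicates 1 and 3 at 1 week, these were 0.72, 0.67 and 0.66, and the correlation with Tnfrsf4 went from 0.62 to 0.10. The 5 genes most like Foxp3 among these 12543 were Pold4, Ggta1, Ola1, Snrnp40 and Tasp1 (r = 0.93 to 0.94), and those most like Tnfrsf9 were Pdcd1, Nab1, Glrx2, Slc39a6 and Nanos1 (r = 0.95 to 0.97). As these rest on the same arrays, they are a description only.

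Markers of other cells were measured beside these genes, since Cd83, Entpd1 and Nrp1 are also found on B cells or myeloid cells. All 15 B cell markers were well above background on every array, as were 14 of 15 myeloid and 8 of 9 CD8 T and NK cell markers. None was at background throughout. As 84.2% to 97.9% of all spots on an array were well above background, these counts do not show that such cells were present. The summed signal of the B cell markers, in units of the array's 75th percentile, was 12 to 13.9 in WT and 11.1, 12 and 41 in KO at 1 week, the last being replicate 1, the KO array with the most Entpd1 and Cd83. At 4 weeks it was 19.3 to 22.4 in WT, 11.6 to 29.8 in KO and 21.1 to 35.5 in Y136F, and of the 15 markers only Cd72 passed against WT at 4 weeks, as lower in Y136F on its brightest probe (second probe -0.55 ± 0.15, adjusted p = 0.055). The myeloid sum was 45.4 to 62.1 in WT, 52.4 to 61.8 in KO and 43.1 to 57.4 in Y136F at 4 weeks. It mostly follows Ly6c2 and Cst3, whose mean levels were 5.19 and 3.66, the next being Xcr1 at 1.28. The list's mean log2 deviation, which weighs its markers alike, was 0.02 to 0.40 in WT, -0.46 to 0.17 in KO and -0.06 to 0.87 in Y136F. S100a8 was higher in Y136F, and was well above background on 9 of 18 arrays. The part of these other cells in the results on Cd83, Entpd1 and Nrp1 was not tested.

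Other lists moved in Y136F at 4 weeks beside Entpd1, Gpr83 and the 4 genes above. The summed CD8 T and NK cell markers were 20.2 to 22.7, beside 9.4 to 11.5 in WT, with Eomes higher by 2.62 ± 0.38 and Gzmk by 2.47 ± 0.44 and Prf1 lower (-0.58 ± 0.13). Of 14 genes of the naive or activated state, Lgals3, Top2a, Mki67 and Itgb1 rose by 2.10 to 2.54, and Ccr7, the receptor that guides naive T cells into lymph nodes, fell (-1.36 ± 0.15). The part of these shifts in the values of the 10 genes was not tested.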

How the data were processed

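RNA of 18 mice was labelled with Cy3 and hybridised to 1-colour Agilent arrays, 3 mice a group; whether replicates were otherwise independent is not stated. The scanner output, per the file headers, came from Feature Extraction (Agilent) version 10.5.1.1, whose processed signal is a background-corrected linear intensity for each spot; the submitters' processing notes give version 10.5 of that program and name limma. A value table deposited by the authors, in log2, was used only as an alternative: its column medians were 8.558 to 8.57, its probes ranked as on the arrays (Spearman 0.997 to 0.998), and its normalization is not given in the sources used here.

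The log2 of the processed intensity minus the array's 75th percentile over 43379 non-control spots was used. Outlier spots were left out, spots of 1 probe averaged, and probes kept that were well above background on at least 3 arrays (39985 of 41174). Accessions were named through RefSeq (GRCm38.p6), which named 24844 probes of 17178 genes; the array design refers to another build, so no probe coordinates are given. Limma 3.58.1 in R 4.3.3 fitted 1 mean per group over 18 arrays with an intensity trend; tests were two-sided, p-values adjusted by Benjamini-Hochberg over all probes of a comparison, with a threshold of 0.05. An error after ± is the standard error of that fit. The number of arrays limits the precision. The fit was tested on simulated data.

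The 10 genes and the gene lists were chosen with earlier results of these data known. Named are all 10 genes, every probe; of each list, genes past the threshold and up to 4 with the smallest p in a comparison with WT; the 5 genes most like Foxp3 and like Tnfrsf9; and Lat, Nr4a1, Egr2 and Irf4 for reference. A gene of the naive or activated list that this rule names is not reported here. Alternatives were normexp background correction (on the median signal), quantile normalization, the series matrix, other probe filters, outlier spots kept, slide, replicate number or sex as a term, fewer groups in the fit, no trend, and left-out arrays. Sex as a term without the 2 libraries against their label was added after the data were seen. Promoter motifs were counted with Python 3; pictures were drawn with matplotlib.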

Additional observations from a re-analysis of the deposited data

Results flagged for a closer look

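The effect of Y136F against WT differed between 1 and 4 weeks by a test of that difference for probe 2 of Entpd1, by 1.68 ± 0.34 on the log2 scale (limma, adjusted p = 0.0337), and for probe 2 of Nrp1, by 1.19 ± 0.25 (adjusted p = 0.0418). Probe 1 of these genes moved the same way (1.48 ± 0.47 and 0.98 ± 0.33) without passing the threshold (adjusted p = 0.202 and 0.249). All Y136F mice are labelled female, while WT went from females and a male at 1 week to males at 4 weeks. Neither change passed with labelled sex as a term (Entpd1 probe 2 1.5 ± 0.45, adjusted p = 0.214; Nrp1 probe 2 1.08 ± 0.33, adjusted p = 0.226) or with slide as a block (adjusted p = 0.0789 and 0.0679). Groups of 3 arrays are too small for a test of single outlying arrays.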

How the results depend on the processing

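Each result was recomputed under 33 alternatives, 18 of which leave out 1 array; probe 2 of a gene has 32, since it is not used where 1 probe stands for a gene. Gpr83 in Y136F at 4 weeks and over both times, and Tnfrsf9 probe 1 and Cd83 in KO over both times, passed in all 33. Gpr83 in KO over both times passed in 31, Tnfrsf9 probe 2 in KO at 4 weeks in 8 of 32, and the changes of the Y136F effect on Entpd1 probe 2 and Nrp1 probe 2 in 16 and 11 of 32. Counted by probe 1, members past the threshold in KO at 1 week went from 0 to 1 without the 2 libraries against their sex label and to 2 with sex as a term as well. KO at 4 weeks went from 0 to 1 with only the compared groups in the fit, without those libraries, and with sex as well, and Y136F at 1 week from 0 to 1 without them. Y136F at 4 weeks went from 2 to 1 with sex as a term. KO against Y136F at 4 weeks went from 3 to 0 with sex as a term and to 1 with sex and without the libraries. Y136F over both times went from 1 to 2 with only the compared groups and to 3 without the libraries, and the change of the Y136F effect from 0 to 2, to 3, and to 1 with sex as well. With 1 array left out, counts ran from 0 to 1 in KO at 1 week (1 without KO replicate 1 at 1 week), 0 to 1 in KO at 4 weeks (1 without KO replicate 1 or 3 at 1 week), 1 to 3 in Y136F at 4 weeks (1 without WT or Y136F replicate 2 or 3 at 4 weeks), 3 to 5 in KO against Y136F at 4 weeks (5 without KO replicate 1 or 3 at 1 week), 3 to 4 in KO over both times, and 0 to 1 in the change of the Y136F effect (1 without KO replicate 1 at 1 week). Cd83 in KO against Y136F at 4 weeks, -0.65 and not past the threshold, turned to 0.02 with sex as a term and 0.04 with sex and without the libraries. The cause of these changes was not tested.

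Over the whole array, probes past the threshold numbered 6 in KO at 1 week (0 to 14 over the alternatives), 39 in KO at 4 weeks (5 to 73), 5 in Y136F at 1 week (1 to 24), 1393 in Y136F at 4 weeks (112 to 1992), 1411 in KO against Y136F at 4 weeks (270 to 1925), 129 in KO over both times (57 to 188), 757 in Y136F over both times (26 to 1359), 239 in the change of the Y136F effect (69 to 761), and 0 between the WT groups (0 to 267); the low counts in Y136F at 4 weeks and over both times came with sex as a term. Of the 39 in KO at 4 weeks 14 were lower, while 75.9% of 54 were higher after quantile normalization and 77.3% of 44 in the authors' value table. Quantile normalization moved the median of all probes from -0.14 to 0 in KO and from -0.16 to -0.04 in Y136F at 4 weeks. Replicate numbers did not pair the samples: deviations of same-numbered arrays correlated at a median of -0.06 (-0.62 to 0.53). With the replicate number as a block, members past the threshold stayed at 2 in Y136F and 3 in KO against Y136F at 4 weeks, at 3 in KO and 1 in Y136F over both times, and at 0 elsewhere, and Nrp1 probe 2 no longer passed in the change of the Y136F effect.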
